A study of Arabidopsis thaliana with 54 samples.

Results

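Roots of Arabidopsis thaliana Col-0 kept without iron for 3 days were compared with and without copper over the same days, across every gene counted. The comparison asks what the removal of copper changes when iron is withdrawn too. The members are the 6 RNA-sequencing libraries titled Col-0 root -Fe+Cu (3) and Col-0 root -Fe-Cu (3), out of 54 libraries in the series. The wild-type plants were grown in hydroponic culture with 25 µM iron and 0.1 µM copper as pretreatment and were then moved for 3 days to solutions with 25 or 0 µM iron and 0.5 or 0 µM copper. The -Fe+Cu group therefore had 0 µM iron and 0.5 µM copper, and the -Fe-Cu group had neither metal, so both groups lacked iron. Iron and copper were withdrawn at the same time, not one after the other. The 0.5 µM copper of the -Fe+Cu group was more than the 0.1 µM of its pretreatment. For comparison, the same copper removal is given in Col-0 roots with iron (+Fe+Cu and +Fe-Cu) and in iron-free roots of spl7, an insertion line (SALK_109908c) of the gene for the copper-response factor SPL7, 3 libraries per group. The spl7 plants compared here were pretreated with 2.5 µM copper, so that genotype and pretreatment cannot be told apart. The fit also held spl7 roots with iron, with and without copper, after that pretreatment. It further held spl7 roots with both metals after pretreatment with 0.1 µM copper. These other spl7 groups entered only the shared estimate of the spread. Each group has 3 libraries that the labels name biological replicates, with no word on separate containers, so the p-values cover the spread among these libraries, in part perhaps technical.

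Plants sense copper shortage largely through SPL7, which binds GTAC motifs, switches on copper uptake and, through microRNAs such as miR398 and miR408, lowers copper proteins that can be spared. FSD1, an iron superoxide dismutase, is the known substitute for the copper/zinc enzymes CSD1 and CSD2, and it needs iron as its cofactor. Iron shortage acts through a separate cascade in root epidermis, in which basic helix-loop-helix factors join FIT to switch on acidification, the reductase FRO2, the transporter IRT1 and the secretion of coumarins that mobilise iron.

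The promoters of 4 copper deficiency genes that rose are shown because they hold the motif letters that SPL7 is known to bind. Each is the 250 bases before the annotated transcription start in the TAIR10.1 RefSeq assembly, 5′ to 3′ along the gene, with GTAC in capitals.
FSD1, chr4:12887012-12887261, minus strand: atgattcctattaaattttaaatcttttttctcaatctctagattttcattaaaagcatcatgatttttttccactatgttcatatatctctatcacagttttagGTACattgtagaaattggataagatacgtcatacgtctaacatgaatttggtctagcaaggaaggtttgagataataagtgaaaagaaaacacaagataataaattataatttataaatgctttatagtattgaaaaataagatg
ZIP2, chr5:23992909-23993158, minus strand: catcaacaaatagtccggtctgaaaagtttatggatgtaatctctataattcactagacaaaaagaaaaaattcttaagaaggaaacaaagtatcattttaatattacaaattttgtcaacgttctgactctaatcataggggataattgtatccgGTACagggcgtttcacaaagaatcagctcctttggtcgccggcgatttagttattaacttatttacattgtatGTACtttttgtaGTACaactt
YSL2, chr5:8323645-8323894, plus strand: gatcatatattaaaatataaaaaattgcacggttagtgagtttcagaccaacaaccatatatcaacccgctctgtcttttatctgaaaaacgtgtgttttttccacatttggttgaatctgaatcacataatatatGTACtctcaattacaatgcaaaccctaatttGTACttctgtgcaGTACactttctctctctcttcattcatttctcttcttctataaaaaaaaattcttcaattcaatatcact
CCH, chr3:20864728-20864977, minus strand: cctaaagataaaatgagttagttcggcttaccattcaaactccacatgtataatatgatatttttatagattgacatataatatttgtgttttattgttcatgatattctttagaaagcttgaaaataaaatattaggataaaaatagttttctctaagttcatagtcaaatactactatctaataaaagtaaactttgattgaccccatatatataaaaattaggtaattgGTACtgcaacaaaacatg
The ZIP2 and YSL2 promoters hold 3 copies each and the FSD1 and CCH promoters 1 each. The promoter of FRO4, the other copper deficiency gene that rose, holds none in this window and is not shown. GTAC reads the same on both strands. In all promoters of this length, 9417 of 27443 held the motif (34.3%) and 394 held at least 3 copies (1.44%), while in the 11 copper deficiency genes 4 held it (36.4%) and 2 held at least 3 (18.2%). A motif match is a description of the letters in the window, not of a bound site.

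Mature sequences of 2 copper microRNAs and their sites are shown because the messages that carry the sites, CSD1, CSD2 and ARPN, fell. The seed (bases 2 to 8) is in capitals in each microRNA, and bases complementary to the microRNA are in capitals in each site.
miR398b-3p, chr5:4691107-4691127, plus strand: uGUGUUCUcaggucaccccug
CSD1 site, chr1:2827177-2827685, plus strand, across a splice junction: aAGGGGUuuCCUGAGAuCACA
CSD2 site, chr2:12015572-12015592, plus strand: ugcGGGUGACCUGgGAAacau
miR408-3p, chr2:19319933-19319953, plus strand: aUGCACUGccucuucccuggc
ARPN site, chr2:827696-827716, minus strand: cCaAGGGAAGAGGCAGUGCAU
The CSD1 site pairs with miR398b-3p at 17 of 21 bases, the CSD2 site with the same microRNA at 13 of 21, and the ARPN site with miR408-3p at 19 of 21. Each site is the ungapped stretch of the transcript with the most complementary bases. Bulged bases and G-U pairs were not allowed for, so pairing may be undercounted. Mature microRNAs were not measured in these libraries. Their precursor transcripts were close to undetected: none of 7 had enough counts to be tested, and together they stayed at or under 0.4 CPM in each of the 6 libraries.

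Library totals were 13823243 to 16284618 counts in the -Fe+Cu group and 12792673 to 14918772 in the -Fe-Cu group, and 20462 genes had enough counts to be tested. Levels are given in CPM, read counts scaled to the effective library size, for replicates 1, 2 and 3 in that order, and changes as log2 changes ± standard error (SE) from the edgeR quasi-likelihood test, with p-values adjusted by the Benjamini-Hochberg method over all tested genes. A gene is said to have risen or fallen only at an adjusted p below 0.05. SPL7 itself stood at 74.6, 72.3 and 70.6 CPM without iron and at 65.5, 67.7 and 66.8 CPM without both metals, and at 26.9, 26.4 and 25.1 CPM in iron-free spl7 roots with copper, so the insertion line has less SPL7 transcript and not none. Leaf markers, a sign of shoot RNA, were low, at 38.0 to 55.3 CPM summed over 8 genes without iron and 64.6 to 108.2 CPM without both metals; 1 of 8 rose (3.66% of all genes rose; the call was lost whichever of the 6 libraries was left out), 7 of 8 were higher in all 3 libraries (19.2% of all genes were), and their part in the results was not tested. The root markers SCR, SHR, PLT1, PLT2, COBL9, CASP1, NRT2.1 and PHO1 summed to 965.9 to 1041.2 and 1118.9 to 1157.1 CPM. Some libraries stood apart. In the -Fe-Cu group replicate 1 kept more of the iron uptake transcripts than replicates 2 and 3. In iron-free spl7 roots with copper, replicate 3 differed from the others at many genes. Values are given below where results rest on these libraries. Replicate 2 of the -Fe-Cu group had 0.25% reads of organelle genes, against 0.08% and 0.06% in replicates 1 and 3. Its level of the leaf marker RBCS1A was 33.9 CPM, against 20.3 and 16.9 CPM. The part of this library in the results was not tested.

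Copper removal changed 1784 of the 20462 tested genes in iron-free roots (8.72%), of which 749 rose (3.66%) and 1035 fell (5.06%). Changes of at least 2-fold were found for 140 genes that rose and 405 that fell. The median log2 change over all tested genes was -0.007. Leaving out any 1 of the 6 libraries lowered the count to between 833 (without -Fe-Cu replicate 3) and 1047 (without -Fe+Cu replicate 3), and 594 of the 1784 genes were called in all 6 such fits. No called gene had the opposite sign in any of them. A fit of the 6 libraries alone called 4350 genes.

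**Figure D1:**
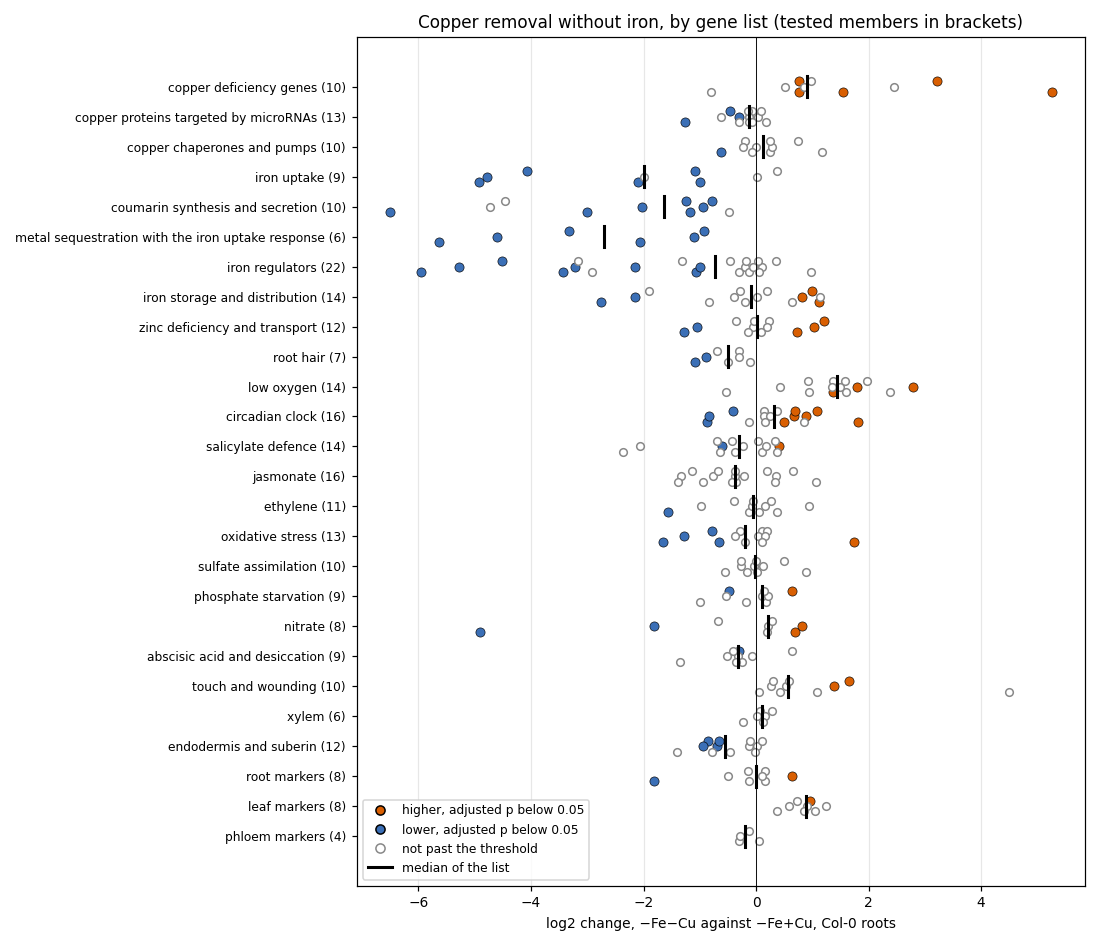
Log2 change on copper removal in iron-free Col-0 roots for the tested members of the gene lists, 1 point per gene, with filled points for genes past an adjusted p of 0.05 and a bar at each list's median. The iron uptake, coumarin, sequestration and regulator lists lie mostly below 0 (medians -2.0, -1.63, -2.69 and -0.74), and the copper deficiency and low oxygen lists mostly above it (medians 0.91 and 1.43).

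Part of the copper deficiency response rose. Of 11 listed genes 10 could be tested, 5 rose against 3.66% of all tested genes, and none fell; the list's median log2 change was 0.91. FSD1, the iron superoxide dismutase, was at 1.88, 0.928 and 0.212 CPM in the -Fe+Cu libraries and at 49.3, 36.3 and 34.6 CPM in the -Fe-Cu libraries. All 3 copper-free libraries lay far above all 3 copper-supplied ones, and the log2 change was 5.26 ± 0.28 (adjusted p = 5.12e-10, edgeR). Even so, FSD1 without both metals stood below its level in roots with both, 70.8 ± 2.0 CPM (SD, n = 3), and below that in roots without copper alone, 304 ± 9.67 CPM; these pairs were not tested. Without -Fe+Cu replicate 1, the highest of its group, the FSD1 change was 6.10.

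ZIP2, a metal transporter of the ZIP family, was at 5.96, 4.51 and 4.52 CPM without iron and rose to 46.5, 53.8 and 40.1 CPM without both metals (log2 change 3.22 ± 0.25, adjusted p = 7.01e-08, edgeR). The gap between the groups was several times the spread within either. FRO4, a metal reductase gene of root tips known for copper reduction, went from 3.58, 3.31 and 4.74 to 15.6, 10.6 and 7.88 CPM (1.55 ± 0.33, adjusted p = 0.00475). The neighbouring and similar gene FRO5 had 2 reads in the 3 -Fe+Cu libraries and 4 in the -Fe-Cu libraries, too few to show a difference, while roots without copper alone had 12.2 ± 4.34 CPM (SD, n = 3). Reads of FRO4 and FRO5 may be split uncertainly between them.

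CCH, a copper chaperone, was at 108, 103 and 104 CPM without iron and at 193, 170 and 173 CPM without both metals (log2 change 0.77 ± 0.12, adjusted p = 0.000288, edgeR), with no overlap between the groups. YSL2, a transporter gene of the metal-nicotianamine family, went from 16.7, 9.94 and 14.4 to 26.1, 24.2 and 20 CPM (0.77 ± 0.18, adjusted p = 0.00835), and its call was lost without -Fe+Cu replicate 2 (0.60, adjusted p = 0.0553). The other copper uptake genes did not pass. COPT1, a high-affinity copper transporter, had 3.14, 4.71 and 3.96 against 5.4, 6.15 and 5.28 CPM (0.51 ± 0.18, adjusted p = 0.0755). COPT2, a copper transporter usually induced by copper shortage, was at 18.4, 14.2 and 20.2 CPM without iron and 12.8, 11.5 and 6.21 CPM without both metals (-0.80 ± 0.53, adjusted p = 0.38). Its 3 copper-free libraries were the lower ones. A fit of the 6 libraries alone called COPT2 lower (adjusted p = 0.0275, edgeR) and did not call COPT1 (adjusted p = 0.0535). The transcription factor gene CITF1 (AT1G71200) had 3 reads in the -Fe+Cu libraries and 17 in the -Fe-Cu libraries, a -Fe+Cu to -Fe-Cu ratio of 0.164 with a 95% counting interval of 0.0307 to 0.566, and was at 5.67 ± 1.02 CPM (SD, n = 3) in roots without copper alone.

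**Figure D2:**
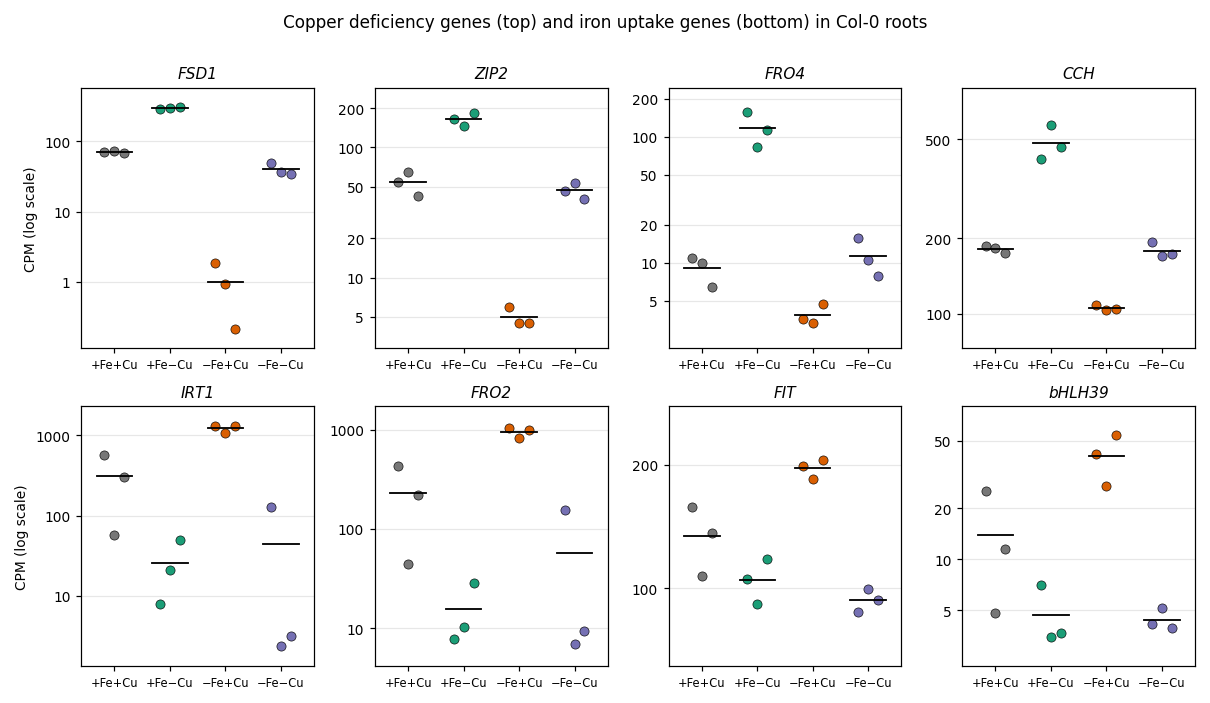
CPM on log axes of copper and iron response genes in every library of the compared root groups, 1 point per library and a bar at each mean. FSD1 and ZIP2 are higher in the 3 -Fe-Cu libraries than in the 3 -Fe+Cu libraries, whereas IRT1 and FRO2 are lower, with -Fe-Cu replicate 1 (127 and 154 CPM) above replicates 2 and 3.

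Messages of copper proteins under microRNA control fell little. Of 13 tested, 3 fell (5.06% of all genes fell) and none rose, and the median was -0.13. CSD1, the cytosolic copper/zinc superoxide dismutase, went from 478, 464 and 398 CPM to 328, 326 and 313 CPM (log2 change -0.47 ± 0.12, adjusted p = 0.0187, edgeR), lower in all 3 libraries. CSD2, the plastid enzyme, went from 144, 173 and 151 to 130, 122 and 128 CPM (-0.30 ± 0.09, adjusted p = 0.0401). ARPN, a plantacyanin (a small blue copper protein), went from 39.6, 30.4 and 35.6 to 20.8, 12.9 and 10.1 CPM (-1.27 ± 0.38, adjusted p = 0.0409). Each of these 3 calls held in only 1 of the 6 fits with a library left out, with adjusted p up to 0.0887 for CSD1, 0.225 for CSD2 and 0.18 for ARPN. CCS, the chaperone that loads copper into these dismutases, was at 115, 109 and 111 against 100, 105 and 111 CPM (-0.08 ± 0.09, adjusted p = 0.604). Of 10 copper chaperones and pumps, 1 fell, which gives no result about the list beside 5.06% of all genes. HMA5, a copper-exporting pump of roots, went from 109, 85.5 and 85.7 to 59.6, 66.5 and 56.1 CPM (-0.62 ± 0.15, adjusted p = 0.0128). Its call was lost without -Fe-Cu replicate 1 or 3 or -Fe+Cu replicate 1 (adjusted p up to 0.0926).

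Many genes of the iron deficiency response fell together although neither group had iron. Over the iron uptake, coumarin, sequestration and regulator lists, 27 of 47 tested members fell (5.06% of all genes fell) and none rose. In all 3 -Fe-Cu libraries 37 members were lower (19.6% of all genes were) and 3 were higher (19.2% of all genes were). The median of the 47 was -1.25. These are whole-root transcript levels, in which fewer cells of a type and less RNA per cell cannot be told apart.

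IRT1, the main iron transporter of the root epidermis, was at 1288, 1070 and 1294 CPM without iron and at 127, 2.37 and 3.21 CPM without both metals. FRO2, the ferric chelate reductase that works with it, was at 1035, 830 and 999 against 154, 6.86 and 9.28 CPM. In both genes replicate 1 of the -Fe-Cu group kept an intermediate level while replicates 2 and 3 were near the floor. The log2 change of IRT1 was -4.78 ± 1.34 (adjusted p = 0.0287, edgeR) and that of FRO2 -4.07 ± 1.26 (adjusted p = 0.0455). Without -Fe-Cu replicate 1 the changes were -8.75 for IRT1 and -6.87 for FRO2 and were called, and without any other of the 6 libraries neither was called, at adjusted p up to 0.114 for IRT1 and 0.168 for FRO2. The same genes were scattered in roots with both metals, at 309 ± 255 CPM for IRT1 and 231 ± 194 CPM for FRO2 (SD, n = 3).

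Within the iron uptake list 6 of 9 fell (5.06% of all genes fell; 3 to 6 members with a library left out), with a median of -2.0. GRF11, a 14-3-3 protein that acts in the iron response, went from 32.4, 27.2 and 29.8 to 7.86, 7.02 and 6.14 CPM (log2 change -2.09 ± 0.38, adjusted p = 0.00126, edgeR), with replicate 1 close to the others. FRO3, a reductase gene of the vasculature, went from 197, 165 and 210 to 88.0, 105 and 94.4 CPM (-0.99 ± 0.21, adjusted p = 0.00428). IRT2, a transporter gene next to IRT1, went from 18.3, 9.87 and 18.4 to 1.05, 0.158 and 0.267 CPM (-4.93 ± 0.92, adjusted p = 0.00167). These 3 genes were called in all 6 fits with a library left out, and without -Fe-Cu replicate 1 the change of IRT2 was -6.09. AHA7, a proton pump gene, also fell (-1.08 ± 0.26, adjusted p = 0.0108), except without -Fe-Cu replicate 3 (adjusted p = 0.0522).

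Coumarin genes fell in 7 of 10 cases (5.06% of all genes fell), with a median of -1.63. All 10 were lower in all 3 libraries (19.6% of all genes were). F6'H1 (AT3G13610), the enzyme that makes scopoletin precursors, was at 554, 491 and 543 CPM without iron and 225, 232 and 245 CPM without both metals (log2 change -1.18 ± 0.24, adjusted p = 0.00339, edgeR). Every copper-free library lay far below every copper-supplied one. BGLU42, a glucosidase that acts before coumarin secretion, went from 40.6, 31.4 and 49.8 to 11.4, 8.83 and 9.75 CPM (-2.02 ± 0.46, adjusted p = 0.00829). The coumarin exporter gene PDR9 (ABCG37) went from 531, 422 and 496 to 239, 269 and 249 CPM (-0.94 ± 0.23, adjusted p = 0.0143), with the call lost without -Fe-Cu replicate 1, -Fe-Cu replicate 3 or -Fe+Cu replicate 1 (adjusted p up to 0.0642). Its regulators moved in the same direction. MYB10 went from 23.5, 25.4 and 29.9 to 4.84, 2.68 and 2.27 CPM (-3.00 ± 0.58, adjusted p = 0.00235). MYB72, which lost its call without any 1 of the -Fe-Cu libraries (adjusted p up to 0.0828), had 135 reads in the -Fe+Cu libraries and 1 in the -Fe-Cu libraries, a ratio of 125 with a counting interval of 22.1 to 4980. The last enzymes of the branch kept more transcript in -Fe-Cu replicate 1 and did not pass. S8H (AT3G12900) had 166, 123 and 175 against 16.9, 0.237 and 0.134 CPM (-4.73 ± 1.54, adjusted p = 0.0577). CYP82C4 had 221, 183 and 213 against 27.4, 0.0788 and 0.401 CPM (-4.46 ± 1.75, adjusted p = 0.117). A fit of the 6 libraries alone called both lower (adjusted p = 0.000833 and 0.00237, edgeR), and the DESeq2 Wald test called S8H (adjusted p = 0.0447).

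Regulators of the response fell in 8 of 22 cases (5.06% of all genes fell; median -0.74). FIT, the factor at the centre of the uptake response, was at 199, 185 and 205 CPM without iron and 87.4, 99.4 and 93.4 CPM without both metals (log2 change -1.07 ± 0.23, adjusted p = 0.00443, edgeR). Its partner genes bHLH38, bHLH39, bHLH100 and bHLH101 all fell. The changes of bHLH38 and bHLH100 were -4.51 and -5.96, and -5.51 and -7.13 without -Fe-Cu replicate 1; the bHLH38 call was lost without -Fe-Cu replicate 2 or 3 and the bHLH100 call without -Fe-Cu replicate 3 (adjusted p up to 0.0738). bHLH39 had 41.7, 27 and 53.8 against 4.14, 5.13 and 3.94 CPM (-3.22 ± 0.65, adjusted p = 0.00301). PYE, a repressor in the iron network of the root interior, went from 19.8, 16.2 and 21.6 to 9.97, 9.07 and 9.68 CPM (-1.0 ± 0.18, adjusted p = 0.00105). BTSL1 (AT1G74770), a ubiquitin ligase that limits the response, went from 315, 256 and 322 to 79.0, 62.5 and 58.0 CPM (-2.16 ± 0.35, adjusted p = 0.000568). FIT, bHLH39, PYE and BTSL1 showed no overlap between groups and were called in all 6 fits with a library left out. IMA3 (AT2G30766), which encodes a short peptide that promotes uptake, also fell, from 2.26, 3.65 and 9.12 to 0.211, 0.0788 and 0.0668 CPM (-5.28 ± 0.98, adjusted p = 0.00161), with -Fe+Cu replicate 3 the highest; without that library the change was -4.51, and without -Fe-Cu replicate 1 -5.92. BTS, the ligase related to BTSL1, had 129, 119 and 140 against 88.2, 104 and 87.7 CPM and did not pass (-0.47 ± 0.19, adjusted p = 0.129). Nor did OPT3, a phloem transporter gene that signals iron status, at 41.7, 43.1 and 98.6 against 27.7, 27.7 and 18.1 CPM (-1.32 ± 0.60, adjusted p = 0.173). Both were lower in all 3 -Fe-Cu libraries, and a fit of the 6 libraries alone called both (adjusted p = 0.00331 and 0.0127, edgeR).

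All 6 genes that store or detoxify metals taken up with iron fell (5.06% of all genes fell; median -2.69). MTP3 (MTPA2), a zinc transporter of the vacuole membrane, went from 215, 186 and 211 to 37.5, 11.2 and 12 CPM (log2 change -3.33 ± 0.65, adjusted p = 0.00234, edgeR), and the change was -4.12 without -Fe-Cu replicate 1. HMA3, a vacuolar metal pump, went from 38.8, 34.5 and 39.7 to 17.6, 20.3 and 15 CPM (-1.10 ± 0.18, adjusted p = 0.000547), and IREG2, a vacuolar nickel and cobalt transporter, from 162, 124 and 132 to 73.3, 77.3 and 69.6 CPM (-0.92 ± 0.19, adjusted p = 0.00362). NAS2, a nicotianamine synthase, went from 29.5, 21.3 and 29.1 to 0.491, 0.71 and 0.401 CPM (-5.64 ± 1.36, adjusted p = 0.0116), with the call lost without -Fe-Cu replicate 1 or 3 (adjusted p up to 0.0623). In NAS2, unlike IRT1, replicate 1 of the -Fe-Cu group was as low as the others. Its close relative NAS1 fell by less (-2.06 ± 0.55, adjusted p = 0.0233), was called in 1 of the 6 fits with a library left out (adjusted p up to 0.104), and may share reads with NAS2.

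Iron storage and distribution genes moved both ways, with 3 of 14 rising (3.66% of all genes rose; 1 or 2 members with a library left out), 2 falling (5.06% of all genes fell; 0 to 2 members) and a median of -0.09. YSL3, a transporter gene of vascular tissue, went from 47.5, 43.1 and 37.8 to 73.3, 76.0 and 78.1 CPM (log2 change 0.82 ± 0.16, adjusted p = 0.0025, edgeR). FRD3, which exports citrate for iron transport in the xylem, went from 37.6, 26.4 and 39.3 to 9.97, 6.39 and 6.68 CPM (-2.16 ± 0.52, adjusted p = 0.0117), with the call lost without -Fe-Cu replicate 2 or 3 (adjusted p up to 0.0639). The zinc genes were likewise divided, with 3 of 12 rising (against 3.66%) and 2 falling (against 5.06%), or 1 or 2 falling with a library left out. ZIP3 went from 31.6, 34.9 and 24.8 to 59.1, 74.5 and 76.1 CPM (1.2 ± 0.25, adjusted p = 0.00386), and ZIP5 from 8.97, 7.95 and 6.72 to 15.1, 16.2 and 17.2 CPM (1.03 ± 0.23, adjusted p = 0.00747). ZIP9 went the other way, from 17.4, 16.6 and 16.1 to 7.37, 6.94 and 6.28 CPM (-1.28 ± 0.27, adjusted p = 0.00382). ZIP3, ZIP5 and ZIP9 all encode transporters of the same family, and their groups did not overlap.

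Among the 15 largest rises by log2 change, beside FSD1 and ZIP2, were several enzymes of specialised metabolism. CYP76G1, a cytochrome P450, had 0.0, 0.0663 and 0.212 CPM without iron and 9.54, 7.96 and 7.08 CPM without both metals (log2 change 6.39 ± 0.81, adjusted p = 5.81e-05, edgeR), or 4 against 343 reads. CYP712A2, another cytochrome P450, went from 0.376, 0.596 and 0.141 to 9.33, 6.62 and 5.01 CPM (4.19 ± 0.65, adjusted p = 0.0005), and its neighbour CYP93D1 from 2.13, 3.45 and 2.97 to 25.2, 24.1 and 21.7 CPM (3.05 ± 0.63, adjusted p = 0.00364). AT3G02100, annotated as a UDP-glycosyltransferase, rose by 5.36 ± 0.66 (adjusted p = 3.72e-05), AT1G24420, an acyltransferase family gene, by 2.81 ± 0.41 (adjusted p = 0.000222), and the dioxygenase family genes AT1G15540 and AT1G52790 by 3.44 ± 0.55 and 2.48 ± 0.34. Only called genes whose groups did not overlap could enter this ranking, so their higher level in all 3 -Fe-Cu libraries follows from the choice. These 7 genes were called in all 6 fits with a library left out. The change of CYP76G1 was 7.64 without -Fe+Cu replicate 3, and that of AT3G02100 was 5.97 without -Fe+Cu replicate 2. In roots with both metals they had intermediate levels, for example 2.48 ± 0.413 CPM for CYP76G1 and 8.22 ± 1.79 CPM for CYP93D1 (SD, n = 3).

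The 15 largest falls held iron response genes described above and others. ZIP8 went from 15.8, 6.63 and 17.6 to 0.281, 0.0 and 0.0668 CPM (log2 change -6.70 ± 1.47, adjusted p = 0.00581, edgeR). AT1G52120, a mannose-binding lectin family gene, went from 49.0, 35.9 and 56.3 to 1.82, 0.158 and 0.401 CPM (-5.85 ± 0.93, adjusted p = 0.000447), and NAC019, a transcription factor gene of stress responses, from 6.46, 3.45 and 5.3 to 0.0702, 0.237 and 0.0668 CPM (-5.30 ± 0.84, adjusted p = 0.000446). All 3 were called in all 6 fits with a library left out. Without -Fe-Cu replicate 1 the changes of ZIP8 and AT1G52120 were -8.19 and -7.30, and without -Fe-Cu replicate 2 that of NAC019 was -6.02. Few reads remained for 2 more genes: COBL6, a COBRA-like gene, had 193 against 2 reads (ratio 89.5, counting interval 24.4 to 744), and SQE6, a squalene monooxygenase family gene, 76 against 1 (ratio 70.5, interval 12.3 to 2820).

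Among the 10 called genes with the largest absolute difference in mean CPM were, beside IRT1 and FRO2, 8 other abundant transcripts, of which 4 fell and 4 rose. AT4G33720, which encodes a secreted protein of the pathogenesis-related CAP family, went from 2860, 2273 and 2161 to 655, 625 and 641 CPM (log2 change -1.92 ± 0.37, adjusted p = 0.00205, edgeR). GLP5, a germin-like protein gene, went from 1457, 1309 and 1234 to 279, 187 and 206 CPM (-2.57 ± 0.43, adjusted p = 0.000746), and the osmotin gene OSM34 from 918, 665 and 703 to 139, 128 and 137 CPM (-2.50 ± 0.42, adjusted p = 0.000646). SAG21, a small mitochondrial protein gene of stress and senescence, rose from 636, 643 and 542 to 1299, 1485 and 1441 CPM (1.21 ± 0.20, adjusted p = 0.000701). NIA1, a nitrate reductase gene, rose from 1156, 1242 and 1041 to 1915, 2161 and 1972 CPM (0.81 ± 0.20, adjusted p = 0.0115), except without -Fe+Cu replicate 3 (adjusted p = 0.0523). The groups did not overlap at these 5 genes, which were picked for their difference in level between the same groups. Of all tested genes, 38.8% did not overlap.

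Low oxygen genes were higher in most cases but rarely passed. Of 14 tested, 3 rose (3.66% of all genes rose), none fell, and 12 were higher in all 3 -Fe-Cu libraries (19.2% of all genes were); the median was 1.43. Their summed level was 617.1 to 681.8 CPM without iron and 1255.8 to 2019.4 CPM without both metals. HRE1 (ERF73), an ethylene-response factor of hypoxia, was at 43.5, 42.0 and 42.8 CPM against 148, 155 and 141 CPM (log2 change 1.79 ± 0.18, adjusted p = 2.61e-06, edgeR) and was called in all 6 fits with a library left out. PDC1, pyruvate decarboxylase of fermentation, was at 14.8, 14.9 and 16.4 against 148, 113 and 59.4 CPM (2.79 ± 0.84, adjusted p = 0.0407), and LBD41, a transcription factor gene of the hypoxia core response, at 49.9, 48.6 and 52.1 against 139, 153 and 96.3 CPM (1.37 ± 0.43, adjusted p = 0.0469). Both lost their call whichever of the 6 libraries was left out, with adjusted p up to 0.12 for PDC1 and 0.143 for LBD41. ADH1, the alcohol dehydrogenase of the same pathway, named here after its values were seen, had 44.3, 39.6 and 60.9 against 336, 253 and 164 CPM (2.38 ± 1.01, adjusted p = 0.146). A fit of the 6 libraries alone called 12 members of the list, and the fit of all root libraries except spl7 -Fe+Cu replicate 3 called 10. Every fit without 1 of the 6 libraries called 1.

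**Figure D3:**
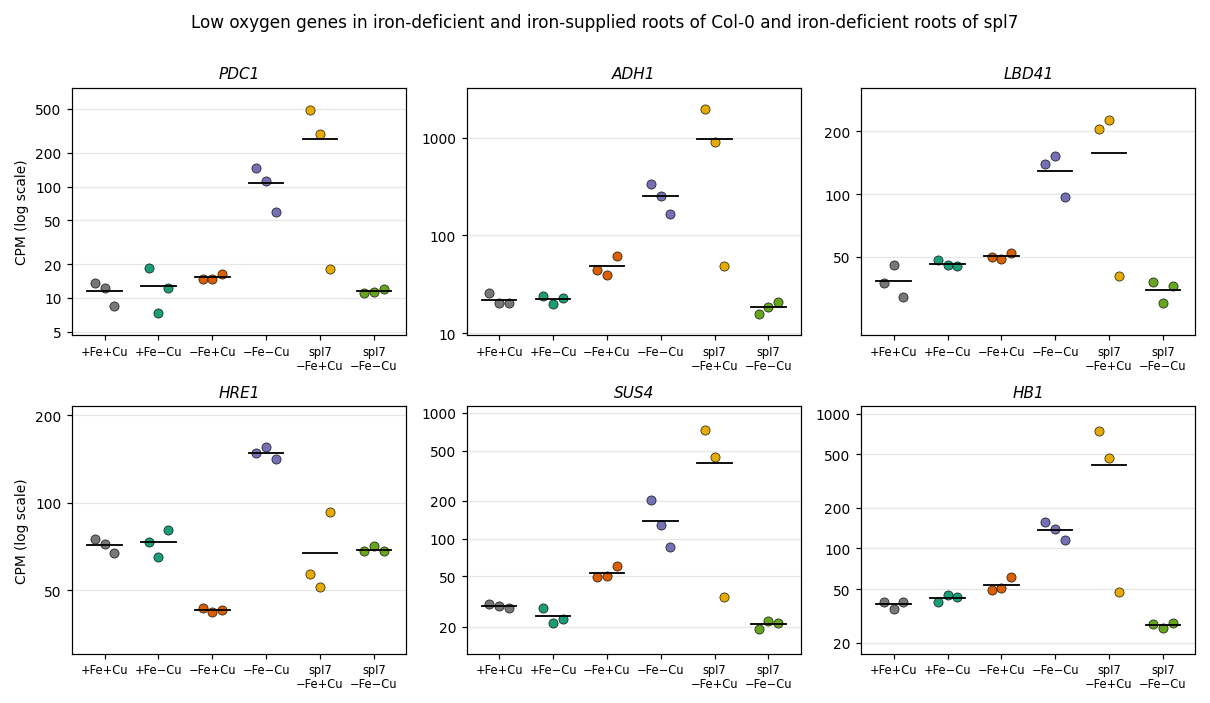
CPM on log axes of low oxygen genes per library in Col-0 roots under the 4 treatments and in iron-free spl7 roots, with a bar at each mean. All 3 -Fe-Cu libraries of Col-0 are above the -Fe+Cu libraries at each gene, and in spl7 -Fe+Cu replicate 3 (18.3 CPM for PDC1) lies far from replicates 1 and 2 (482 and 297 CPM) except at HRE1.

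Clock genes changed in both directions, with 6 of 16 rising (3.66% of all genes rose; 4 members in every fit with a library left out), 3 falling (5.06% of all genes fell) and a median of 0.31. PRR9, a repressor expressed in the morning, went from 4.33, 3.84 and 3.89 to 12.6, 16.2 and 14.0 CPM (log2 change 1.82 ± 0.21, adjusted p = 2.62e-05, edgeR). LNK2 (AT3G54500), a coactivator of the clock, went from 61.9, 42.9 and 43.3 to 86.7, 124 and 104 CPM (1.08 ± 0.25, adjusted p = 0.00747). ELF4, an evening gene, fell from 24.3, 25.2 and 22.5 to 13.2, 12.5 and 13.4 CPM (-0.88 ± 0.22, adjusted p = 0.0142), and its call was lost without -Fe-Cu replicate 2 or 3 or -Fe+Cu replicate 2 (adjusted p up to 0.0645). Its partner LUX, named after its values were seen, fell from 82.1, 76.4 and 77.0 to 61.6, 56.6 and 58.8 CPM (-0.41 ± 0.07, adjusted p = 0.000494). RVE8, a morning activator, rose by 0.89 ± 0.26 (adjusted p = 0.0327), a call that was lost whichever of the 6 libraries was left out (adjusted p up to 0.095). The hour of harvest is not given in the labels.

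The effect of copper removal without iron was next set against its effect with iron, in libraries that the 2 effects do not share. With iron, 15 genes were called on copper removal (0.0733%), of which 10 rose (0.0489%) and 5 fell (0.0244%). At an unadjusted p below 0.05 (edgeR) there were 3262 genes with iron and 4981 without it. The 15 calls therefore do not show that few genes changed with iron. The difference between both effects passed for 591 genes (2.89%), 295 of them more positive without iron (1.44%) and 296 more negative (1.45%). Leaving out 1 of the 12 libraries moved that count to between 245 (without -Fe-Cu replicate 2) and 1916 (without +Fe-Cu replicate 1), with 340 without -Fe-Cu replicate 1, 315 without -Fe-Cu replicate 3, 296 and 304 without -Fe+Cu replicates 2 and 3, 254 and 341 without +Fe-Cu replicates 2 and 3, and 311 without +Fe+Cu replicate 2; 197 of the 591 genes were called in all 12 fits.

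The copper deficiency genes did not differ in 1 direction: 2 of 10 had a more positive effect without iron (1.44% of all genes) and 4 a more negative one (1.45%). FSD1 and ZIP2 rose by more without iron, from lower starting levels, with log2 differences of 3.16 ± 0.35 (adjusted p = 8.49e-05, edgeR; 4.00 without -Fe+Cu replicate 1) and 1.60 ± 0.32 (adjusted p = 0.00974). FRO4, CCH, COPT2 and the factor gene BHLH23 (AT4G28790) had smaller or negative log2 changes without iron. For FRO4 the difference was -2.13 ± 0.45 (adjusted p = 0.0121), beside 9.12 ± 2.36 CPM with both metals and 118 ± 36.8 CPM without copper alone (SD, n = 3). It was -0.64 ± 0.16 for CCH (adjusted p = 0.0353), -2.84 ± 0.74 for COPT2 (adjusted p = 0.0399) and -1.42 ± 0.38 for BHLH23 (adjusted p = 0.0455), and each of these 3 was called in 2 of the 12 fits with a library left out. COPT2 with iron was at 15.2 ± 4.59 CPM with copper and 62.5 ± 7.62 CPM without (SD, n = 3).

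Clock genes differed in opposite directions, with 7 of 16 more positive without iron (1.44% of all genes were) and 3 more negative (1.45%). PRR9 fell with iron (log2 change -1.17, adjusted p = 0.0452, edgeR) and rose without it, a difference of 2.99 ± 0.31 (adjusted p = 2.27e-05). For LNK2 the difference was 2.18 ± 0.35 (adjusted p = 0.00182). LHY, a central morning factor named after its values were seen, was at 4.43 ± 0.203 and 1.40 ± 0.377 CPM with iron, with and without copper (SD, n = 3), and at 3.64, 3.84 and 3.39 against 4.63, 4.34 and 5.14 CPM without iron, a difference of 2.01 ± 0.31 (adjusted p = 0.00115). PRR9 and LNK2 were called in all 12 fits with a library left out.

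**Figure D4:**
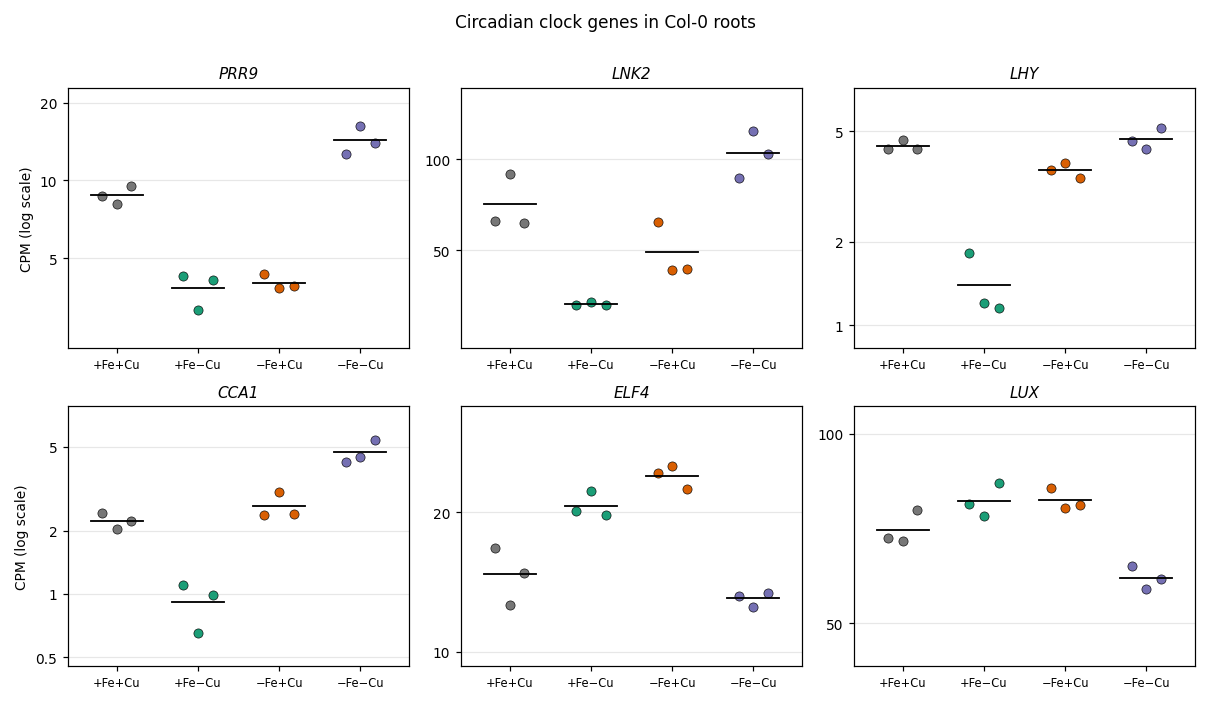
CPM on log axes of clock genes per library in Col-0 roots under the 4 treatments, with a bar at each mean. PRR9 is lower without copper than with it when iron is present (3.84 ± 0.594 against 8.77 ± 0.738 CPM) and higher when iron is absent.

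Outside these lists, CYP76G1, AT3G02100, CYP712A2 and AT1G15540, which rose without iron, did not pass the test of copper removal with iron. Their differences were 6.56 ± 1.04, 5.33 ± 0.90, 4.41 ± 0.89 and 3.61 ± 0.74 (adjusted p between 0.00166 and 0.0115, edgeR), each called in all 12 fits. Without -Fe+Cu replicate 3 the difference of CYP76G1 was 7.81, and without -Fe+Cu replicate 2 or +Fe-Cu replicate 1 that of AT3G02100 was 5.94. CYP76G1, for example, was at 2.48 ± 0.413 CPM with both metals and 2.16 ± 0.859 CPM without copper alone (SD, n = 3). The most negative differences were those of AT1G52120 (-7.44 ± 1.34, adjusted p = 0.00399) and AT5G38910, a cupin family gene (-5.78 ± 0.99, adjusted p = 0.00283), that of AT1G52120 being -8.89 without -Fe-Cu replicate 1 and -6.76 without +Fe-Cu replicate 2. AT5G38910 went from 5.83, 3.78 and 6.5 to 0.281, 0.237 and 0.334 CPM without iron and stood at 2.36 ± 0.946 and 7.24 ± 1.21 CPM with iron, with and without copper (SD, n = 3). Of the 47 iron response genes, PYE alone differed (-1.08 ± 0.25, adjusted p = 0.0218), in 6 of the 12 fits with a library left out, beside a scatter of the iron genes in roots with both metals.

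**Figure D5:**
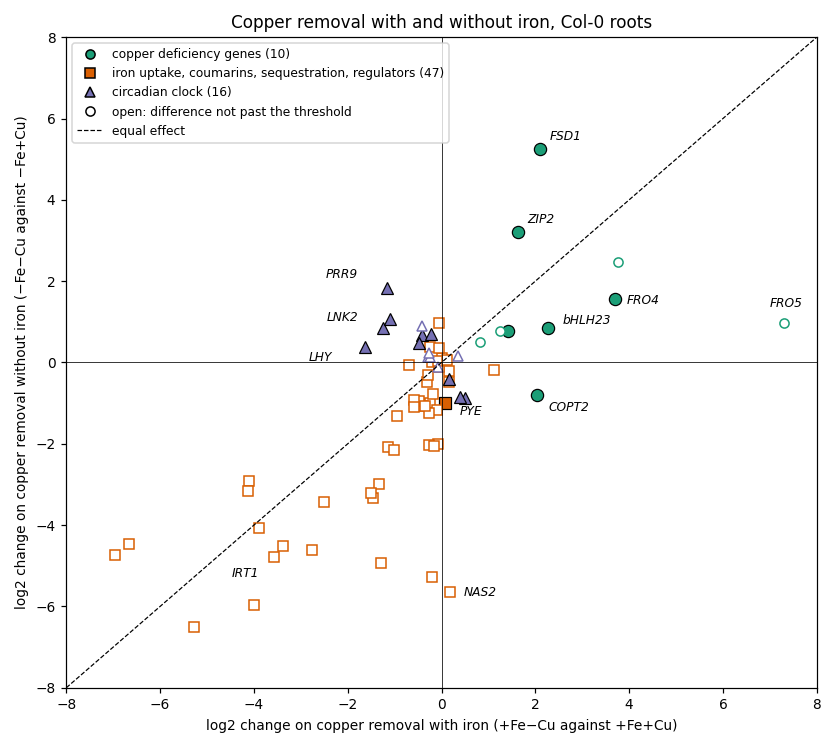
Log2 change on copper removal with iron (horizontal axis) against that without iron (vertical axis) for copper, iron and clock genes in Col-0 roots, from libraries the axes do not share. FSD1 (2.1 and 5.26) and ZIP2 (1.62 and 3.22) lie high on both axes, while PRR9 (-1.17 and 1.82) lies on opposite sides of 0.

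In iron-free spl7 roots, copper removal changed 2844 genes (13.9%), with 1061 higher (5.19%) and 1783 lower (8.71%), and the effect in Col-0 differed from it for 418 genes (2.04%), 220 of them more positive in Col-0 (1.08%) and 198 more negative (0.968%). That number rested on replicate 3 of the spl7 -Fe+Cu group: without it 3955 genes differed, while without any other library the count was 151 to 340, with 151 without replicate 1 of the same group, 158 and 249 without spl7 -Fe-Cu replicates 2 and 3, 212, 201 and 237 without Col-0 -Fe-Cu replicates 1, 2 and 3, and 218, 232 and 248 without Col-0 -Fe+Cu replicates 1, 2 and 3. Of the copper deficiency genes, 3 of 10 were more positive in Col-0: ZIP2 by 2.46 ± 0.41 (adjusted p = 0.00341, edgeR), FRO4 by 2.46 ± 0.59 (adjusted p = 0.0293) and CCH by 1.05 ± 0.16 (adjusted p = 0.00243), and without that library by 1.67, 2.65 and 1.16. The FRO4 call held in 4 of the 12 fits with a library left out (adjusted p up to 0.162), and the other calls in all 12. FSD1 had 1 library of 6 with any read in these spl7 roots, at 0.0626 CPM, against 49.3, 36.3 and 34.6 CPM in Col-0 without both metals.

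Of the 47 iron response genes, 11 had a more negative effect in Col-0 than in spl7 (0.968% of all genes did) and none a more positive one. FIT was at 84.3, 86.3 and 133 CPM in spl7 without iron and 146 ± 66.7 CPM without both metals (SD, n = 3), and the difference was -1.60 ± 0.32 (adjusted p = 0.0092, edgeR), or -1.85 without spl7 -Fe+Cu replicate 3. For F6'H1 it was -1.63 ± 0.34 (adjusted p = 0.0123), for IREG2 -1.54 ± 0.27 (adjusted p = 0.00424), for HMA3 -1.25 ± 0.25 (adjusted p = 0.0098) and for BGLU42 -3.47 ± 0.65 (adjusted p = 0.00637). These 5 genes were called in all 12 fits with a library left out. Replicate 2 of the spl7 -Fe-Cu group held the highest level of each in its group, and without it the differences were -1.96 for BGLU42 and -1.03 for F6'H1. IRT1, at 578 ± 616 CPM in spl7 roots without both metals (SD, n = 3), did not pass (-5.02, adjusted p = 0.136).

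Low oxygen genes differed in 13 of 14 cases, all more positive in Col-0 (1.08% of all genes were). The genotypes had opposite orders of levels, since PDC1 was at 482, 297 and 18.3 CPM in spl7 without iron and 11.6 ± 0.50 CPM without both metals (SD, n = 3). The difference was 7.32 ± 1.23 for PDC1 (adjusted p = 0.00362, edgeR) and 3.55 ± 0.61 for LBD41 (adjusted p = 0.00424), and without replicate 3 of that spl7 group 7.87 and 4.01, with 6.57 for PDC1 without its replicate 1. HRE1 did not follow the other genes in spl7, at 57.0, 51.4 and 92.7 CPM without iron and 69.0 ± 1.52 CPM without both metals, and its difference was 1.75 ± 0.25 (adjusted p = 0.0012), or 1.45 without that replicate.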

How the data were processed

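Per the labels, total RNA of roots was made into standard Illumina libraries, and the authors deposited the unnormalised read count per gene for each library. Bowtie, HTSeq and the TAIR10 build are named in the submitters' processing notes. No versions and no strand setting are given in the sources used here, so reads of genes that overlap on opposite strands cannot be told apart; among the named genes this touches YSL2, CSD1, FRO3, AHA7, F6'H1, MYB72, MYB10, IREG2, BTSL1, IMA3, bHLH38, bHLH101, LNK2, LUX, HRE1, ADH1, CASP1, AT3G02100, NRT1.8 and FAR4. The counts were used as deposited, and 0 entries named no gene. The 27 root libraries were fitted together in edgeR 4.0.16 (R 4.3.3, limma 3.58.1, quasi-likelihood test, group means, 18 residual degrees of freedom), after filterByExpr (minimum count 10, minimum total 15) had kept 20462 of 33610 identifiers, with TMM factors of 0.969 to 1.035. The 27 rosette libraries were not used. Totals were 9254761 to 17277379 counts, and the biological coefficient of variation was 0.129. A Benjamini-Hochberg adjusted p below 0.05 made a call. The SE was taken as the size of the log2 change divided by the root of its F statistic, and CPM was computed from effective library sizes. Ratios of summed reads have exact 95% counting intervals, which cover counting error only. Replicates of the compared groups differed by more than sampling noise (chi-square of 3.97 to 8.72 per degree of freedom). On simulated counts for the copper removal without iron, 88 of 100 genes planted at 2-fold and 100 of 100 at 4-fold were found, with 7 false calls. The planted genes were drawn above a minimum mean level and no outlying library was simulated. The shares found therefore do not cover genes of low level or genes with an outlying library.

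The members and the 27 gene lists were chosen with earlier results of these data known, so the lists are described by counts and medians and not tested. Named were every detected copper and iron gene, up to 4 called members of each other list, the 15 largest rises and falls with a mean of 1 CPM or more and no overlap, the 10 called genes with the largest CPM differences, and the 5 largest differences in each direction between copper effects; not all of these 178 genes are given, and genes outside the rule are said to be named after their values were seen. Alternatives were DESeq2 1.42.0 size factors and Wald test, no filter, the replicate number as a block, other sets of libraries, and each library left out. TAIR10.1 (RefSeq) gave names for the 28932 identifiers that matched a locus tag, coordinates and sequences; TAIR10 and TAIR10.1 share the nuclear sequence.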

Additional observations from a re-analysis of the deposited data

Results flagged for a closer look

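The effect of copper removal differed with the iron supply for 591 genes and with the genotype for 418 genes by edgeR tests of the difference itself, and the named genes among them are given here as the copper effect without iron in Col-0 minus the other effect, on the log2 scale.

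Against copper removal with iron, the difference was positive for FSD1 (3.16), ZIP2 (1.60), the clock genes PRR9 (2.99), LHY (2.01) and LNK2 (2.18), the low oxygen gene HRE1 (1.76), SAG21 (1.32), CYP76G1 (6.56), AT3G02100 (5.33), CYP712A2 (4.41), AT1G15540 (3.61), AT1G24420 (2.86) and AT1G52790 (2.81). It was negative for FRO4 (-2.13), LUX (-0.57), OSM34 (-2.79), AT4G33720 (-2.45), AT5G38910 (-5.78) and AT1G52120 (-7.44). These 19 genes were called in all 12 fits with a library left out. The calls were lost in some of those fits for COPT2 (-2.84, called in 2 of 12), FRD3 (-2.62, 1 of 12), CCH (-0.64, 2 of 12), BHLH23 (-1.42, 2 of 12), CYP93D1 (3.14, 1 of 12), PYE (-1.08, 6 of 12), PHO1 (0.78, 7 of 12), ELF4 (-1.37, 9 of 12) and ERF104 (1.54, 9 of 12).

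Against copper removal in iron-free spl7 roots, 13 genes were called in all 12 fits with a library left out. The difference was positive for the low oxygen genes ADH1 (8.09), PDC1 (7.32), LBD41 (3.55) and HRE1 (1.75), for ZIP2 (2.46), CCH (1.05) and ZAT10 (2.49), and negative for FIT (-1.60), F6'H1 (-1.63), BGLU42 (-3.47), IREG2 (-1.54), HMA3 (-1.25) and GLP5 (-2.93). Calls lost in some fits were those of FRO4 (2.46, called in 4 of 12), PRR9 (1.21, 4 of 12), ZIP8 (-9.49, 11 of 12), S8H (-8.05, 4 of 12), COBL6 (-6.50, 3 of 12), MTP3 (-3.61, 4 of 12), MYB10 (-3.34, 6 of 12), FRD3 (-3.05, 6 of 12), GRF11 (-2.26, 6 of 12), ZIP9 (-1.47, 3 of 12) and PDR9 (-1.44, 4 of 12). Without spl7 -Fe-Cu replicate 2, the difference was -6.39 for ZIP8, -4.89 for S8H, -1.28 for COBL6, -2.83 for MTP3, -1.91 for MYB10, -1.67 for FRD3, -1.42 for GRF11, -0.81 for ZIP9, -0.95 for PDR9 and -1.94 for GLP5.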

How the results depend on the processing

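The count of 1784 genes changed by copper removal without iron stayed within 1.5 times under DESeq2 size factors, the DESeq2 Wald test and no filter, and was 4350 from the 6 compared libraries alone, 3168 from the 12 Col-0 root libraries, 3637 from 26 root libraries without spl7 -Fe+Cu replicate 3, and 833 to 1047 with 1 of the 6 libraries left out. The difference from copper removal with iron (591) was 1135 by the Wald test, 2183 from the compared groups and from the 12 Col-0 libraries, 2985 from 26 libraries, and 245 to 1916 with a library left out. The difference from spl7 (418) was 762 by the Wald test, 94 from the compared groups, 3955 from 26 libraries, and 151 to 3955 with a library left out. Fits with fewer libraries take the spread from fewer groups. The same-numbered libraries did not deviate together (correlations of -0.136, -0.047 and -0.079), so the numbers do not pair them; with the replicate number as a block the counts were 1687, 519 and 442. Under that block, copper removal without iron was no longer called for FRO2 (adjusted p = 0.0634, edgeR) and CSD2 (0.0529) and was called for BHLH23 (0.0422), the leaf marker and abscisic acid lists lost their 1 call, and the touch list had 4 rises in place of 2 and the salicylate list 2 in place of 1. Under the compared groups the split was 2118 higher and 2232 lower, and under 26 libraries 1886 and 1751, against 749 and 1035. No gene called in any of the 3 comparisons changed sign in the fits that tested it. The 7 copper microRNA precursors did not pass the filter on low counts, so that no change of theirs was detectable at this depth.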

Other observations

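Single genes of nitrate and phosphate transport also changed on copper removal in iron-free roots, where 3.66% of all tested genes rose and 5.06% fell. Of 8 nitrate genes 2 rose and 2 fell (1 or 2 each with a library left out), with a median log2 change of 0.20. NRT1.8, which takes nitrate out of the xylem sap, was at 21.0, 9.01 and 15.7 CPM without iron and 0.632, 0.315 and 0.534 CPM without both metals (-4.91 ± 0.89, adjusted p = 0.00132, edgeR). PHO1, which loads phosphate into the xylem, was at 515, 489 and 472 against 759, 752 and 777 CPM (0.63 ± 0.13, adjusted p = 0.00382), and of 9 phosphate genes 1 rose and 1 fell (0 or 1 with a library left out), near those shares of all genes. NRT1.8 overlaps a gene on the opposite strand. Both genes showed no overlap between the groups and were called whichever of the 6 libraries was left out.

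Suberin genes of the endodermis fell in 4 of 12 cases (5.06% of all genes fell; 2 to 5 members with a library left out; median -0.56). FAR4 and FAR5, which make fatty alcohols of suberin, were at 42.1, 37.0 and 35.6 against 23.7, 21.9 and 17.7 CPM and at 29.8, 24.7 and 27.6 against 16.6, 12.4 and 13.8 CPM (-0.86 ± 0.15, adjusted p = 0.000923, and -0.94 ± 0.20, adjusted p = 0.00439). FAR4 overlaps a gene on the opposite strand. Root hair genes fell in 2 of 7 cases (against 5.06%; 0 to 2 with a library left out). Oxidative stress genes rose in 1 of 13 cases (against 3.66%) and fell in 4 (against 5.06%; 1 to 4 with a library left out), with CAT3, a catalase, at 1151, 993 and 1088 against 686, 643 and 542 CPM (-0.79 ± 0.14, adjusted p = 0.000889). ZAT10, a zinc finger factor gene of the same list, rose from 28.3, 26.1 and 19.3 to 73.1, 103 and 71.2 CPM (1.74 ± 0.33, adjusted p = 0.00199). Touch and wounding genes rose in 2 of 10 cases (against 3.66%; 1 or 2 with a library left out), among them the ethylene-response factor gene ERF104, at 86.7, 65.5 and 57.3 against 165, 212 and 167 CPM (1.38 ± 0.24, adjusted p = 0.00107). FAR4, FAR5, CAT3, ZAT10 and ERF104 were called whichever of the 6 libraries was left out. The remaining lists had at most 1 call in each direction, which gives no result about them beside 3.66% rising and 5.06% falling among all genes. Salicylate genes rose in 1 (0 or 1 with a library left out) and fell in 1 of 14 cases, ethylene genes fell in 1 of 11, and of 8 root markers 1 rose and 1 fell (0 or 1 with a library left out). Abscisic acid genes fell in 1 of 9 cases, a call that was lost whichever of the 6 libraries was left out. None of 16 jasmonate, 10 sulfate, 6 xylem or 4 phloem genes passed the edgeR test, against 4, 2, 1 and 2 genes at an unadjusted p below 0.05 and 1, 1, 0 and 0 genes by the DESeq2 Wald test.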
